A study of Mus musculus with 8 samples.

Results

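Binding of the transcription factor Pax6 at the genes of the other Pax proteins was examined in alphaTC1 cells, which are cultured mouse pancreatic alpha cells that make glucagon. The 8 genes were Pax1, Pax2, Pax3, Pax4, Pax5, Pax7, Pax8 and Pax9. Their sites were those that the authors' nearest-gene annotation gave to one of these symbols: 18 of 26244 sites, each a window of 100 bp on mm10. Pax3 had 7 sites, Pax2 had 5, Pax7 had 3, Pax5 had 2 and Pax4 had 1, while Pax1, Pax8 and Pax9 had none. Scrambled antisense oligonucleotides served as the control knockdown (control KD). In the Paupar KD group the oligonucleotides targeted Paupar, a long non-coding RNA encoded near Pax6. Each group had 2 Pax6 chromatin immunoprecipitation (ChIP-seq) libraries, which the design text calls biological duplicates, and 2 input libraries that were not analysed here. All libraries came from the same cell line. The question of the comparison was whether Pax6 binding differed after Paupar KD.

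Pax proteins bind DNA through a paired domain, and Pax3, Pax4, Pax6 and Pax7 also carry a full homeodomain. Pax2, Pax5 and Pax8 keep part of a homeodomain, and Pax1 and Pax9 lack it. The genes are known for their roles in separate lineages: Pax3 and Pax7 in neural crest and muscle progenitors, Pax2 and Pax8 in kidney, Pax8 in thyroid, Pax5 in B cells, and Pax1 and Pax9 in the sclerotome and pharyngeal pouches. Pax4 acts in the islet itself, where it favours beta and delta cells over alpha cells.

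The signal of a site is given as a concentration, the authors' mean log2 read signal of a group, with no value per library and so no standard deviation. Where a site is given 2 concentrations, control KD comes first. A site carries the name of the nearest gene, which does not show that it acts on that gene. A log2 change is Paupar KD minus control KD, and a site is called where the authors' false discovery rate (FDR) was below 0.05. The peak lists of the single libraries add which libraries had a summit within 250 bp of the middle of a site. The summit score, read here as −log10 of a q-value, is compared only within its own list. The lists held 9983 to 17942 summits, and their read depths were unknown here. RNA was not measured, so the alpha-cell label could not be tested. Listed sites were not limited to alpha-cell genes: 3 of 3 alpha-cell genes examined (Gcg, Irx1 and Irx2), 3 of 5 beta-cell genes (all but Ins1 and Ins2) and 2 of 2 delta-cell genes had at least 1.

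Pax3 was the only gene of the 8 with called sites, and all 3 of them were higher after Paupar KD. They made up 3 of the 18 sites (16.7%), against 3.26% of all sites called higher; 0 of the 18 was called lower, against 0.846%, with 1 lower at an unadjusted p below 0.05. Since all 3 were assigned to 1 gene, they do not speak for the other Pax genes, which had 0 calls among 11 sites. The largest difference lay in intron 4 of 8 of Pax3, 8.82 kb from the gene's start (chromosome 1, 78187918 to 78188017). Its concentration was 1.37 in control KD against 5.42 in Paupar KD, a log2 change of 4.05 (FDR 0.000373), according to the authors' deposited table. A second site of the same intron, 54.9 kb from the start (78141794 to 78141893), went from 2.18 to 5.38, a log2 change of 3.21 (FDR 0.00853), per the authors' deposited table. The third called site (77972350 to 77972449) lay outside Pax3, 129 kb from the end of the gene and 224 kb from its start, in the first exon of another Ensembl transcript. It went from 3.62 to 6.28, a log2 change of 2.66 (FDR 2.45e-05), and had the highest Paupar KD signal of the 18 sites according to the authors' deposited table. In control KD these sites ranked low, at the 5.3, 10.1 and 32.1 percentiles of all sites, and in Paupar KD they stood at the 77.3, 76.4 and 92.2 percentiles.

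Summits marked the 3 called sites unequally. At the distant site, a summit stood in control KD replicate 1 (score 10.7, in the top 51.6% of its list). Both Paupar KD libraries also had a summit there (scores 42.4 and 44.4, in the top 8.81% and 7.78% of their lists). Only control KD replicate 2 lacked a summit there. The intron site at 54.9 kb had its only summit in Paupar KD replicate 1, with a score of 44.5, in the top 8.14% of that list. Likewise, the site at 8.82 kb had its only summit in Paupar KD replicate 1, with a score of 13.6, in the top 37.3%. Neither of these intron sites had a summit in Paupar KD replicate 2. Because the table holds group means, these calls could not be refitted without Paupar KD replicate 1, and its part in them was not tested.

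The other 4 Pax3 sites, in or near the gene, did not pass. A site 0.897 kb from the called one at 54.9 kb (78140897 to 78140996) had 4.07 and 4.76 (FDR 0.644) per the authors' deposited table. The strongest of the 18 sites by mean signal, also in intron 4 (78182035 to 78182134), lay 5.88 kb from the site with the largest change. It had 6.45 and 6.05 (FDR 0.606) according to the authors' deposited table and a summit in all 4 libraries, with scores from 10.4 to 35.9. At the Pax3 promoter, 41 bp from a transcript start (78196973 to 78197072), the values were 6.46 and 5.74 (p = 0.0371, FDR 0.244) per the authors' deposited table. This was the 1 site of the 18 with a lower signal at an unadjusted p below 0.05, and it had summits in control KD replicate 1 and Paupar KD replicate 2. The site 6.63 kb upstream (78203768 to 78203867) had 4.98 and 4.56 (FDR 0.768) according to the authors' deposited table, with a summit in all 4 libraries. After Paupar KD the 7 Pax3 sites spanned 4.56 to 6.28, against 1.37 to 6.46 in control KD, so the 3 called sites, the lowest at Pax3 in control KD, stood within or above the range of the other 4 after Paupar KD.

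**Figure D1:**
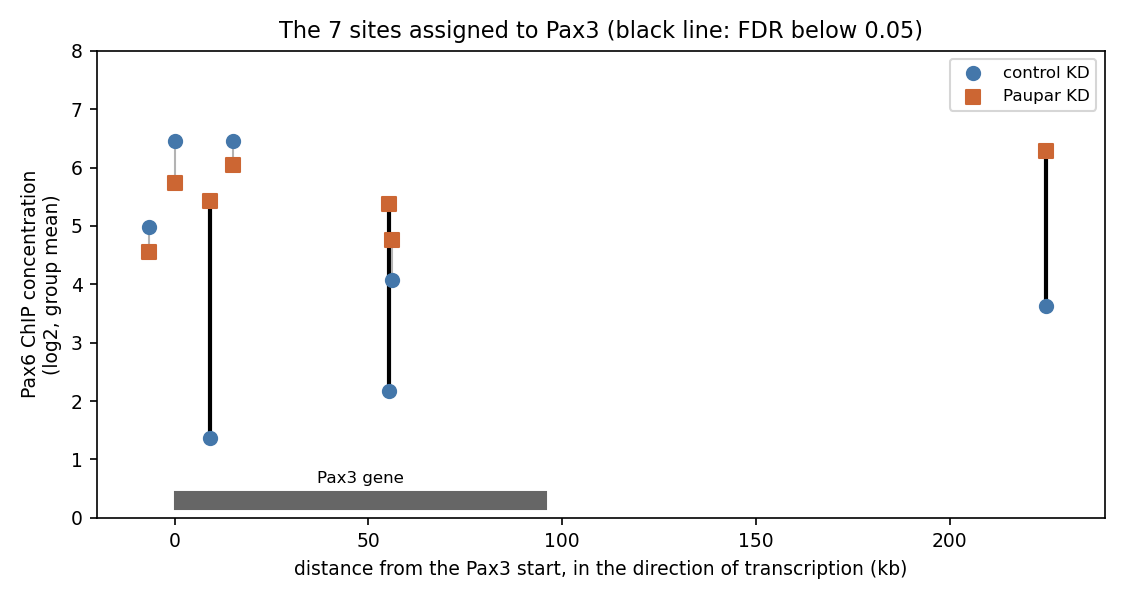
Concentration (log2, group mean) of the 7 sites assigned to Pax3 against distance from the gene's start in the direction of transcription (kb); circles are control KD, squares Paupar KD, and the grey bar is the gene. The 3 sites joined by black lines (FDR below 0.05) go from 1.37, 2.18 and 3.62 to 5.42, 5.38 and 6.28, while the other 4 differ by at most 0.72.

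Pax2, a kidney and optic stalk factor gene, had all of its 5 sites upstream, in distal intergenic sequence 31.8 to 89.1 kb from the assigned start. None lay within the gene. The nearest and strongest (chromosome 19, 44724136 to 44724235) had 6.27 and 5.79 (FDR 0.535) per the authors' deposited table. Despite that signal, which stood at the 87.5 percentile of all sites by mean, a summit was listed in Paupar KD replicate 2 alone (score 17.7). The site at 46.9 kb (44709034 to 44709133) had 3.04 and 5.03, a log2 change of 1.99 (p = 0.0039, FDR 0.0713), according to the authors' deposited table. It was the site closest to the threshold from outside, and the 1 site of the 18 whose summits were those of both Paupar KD replicates and of no control KD library (scores 10.1 and 11.6). The most distant site (44666848 to 44666947) had 5.60 and 5.89 (FDR 0.794) per the authors' deposited table, with a summit in every library.

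The remaining Pax2 sites differed in how the windows met the peak lists. The window 85.1 kb upstream (44670874 to 44670973), with 5.62 and 4.81 (FDR 0.358) according to the authors' deposited table, had no summit within 250 bp. Its nearest summits lay 463 to 484 bp from the middle in all 4 libraries. They stood at lower coordinates in both control KD libraries and Paupar KD replicate 1, and at higher coordinates in Paupar KD replicate 2. The window 60.2 kb upstream (44695791 to 44695890) had 4.28 and 3.65 (FDR 0.754) per the authors' deposited table, with low-scoring summits in control KD replicate 2 (3.56) and Paupar KD replicate 1 (4.32).

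Pax4, the islet member of the family and the closest relative of Pax6, had 1 site. It lay 1.96 kb upstream of the start (chromosome 6, 28451310 to 28451409), with 5.19 in control KD against 4.68 in Paupar KD (FDR 0.673) according to the authors' deposited table. Summits stood in control KD replicate 1 (score 7.27) and in Paupar KD replicates 1 and 2 (2.21 and 8.81). The first of the Paupar KD scores was near the lowest of its list.

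Pax5, the B-cell commitment factor gene, had 2 weak sites. The intron site (chromosome 4, 44633784 to 44633883) had 2.72 and 3.81 (FDR 0.597), and the site 38 bp from an internal transcript start (44645586 to 44645685) had 3.46 and 3.13 (FDR 0.906), per the authors' deposited table. Stronger signal in and beside the gene was assigned to Mir5120, a microRNA gene inside Pax5. The first Mir5120 site, in intron 8 of 9 of Pax5 (44564699 to 44564798), had 4.83 and 5.12 (FDR 0.858) according to the authors' deposited table. The second, 5.53 kb beyond the end of Pax5 (44519117 to 44519216), had 6.04 and 6.85 (p = 0.0182, FDR 0.167) per the authors' deposited table and a summit in all 4 libraries. The mature microRNA is shown because these 2 sites carry its name although 1 lies in Pax5. It comes from RefSeq (GRCm38.p6, minus strand, chr4:44607536-44607558), and capitals mark the seed, bases 2 to 8.
mmu-miR-5120: uUUGGGGCuguggugccaccagc

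Pax7, a muscle satellite cell factor gene, had 1 site in the gene and 2 upstream. The site in intron 7 of 8 (chromosome 4, 139771400 to 139771499) had 3.47 in control KD against 1.29 in Paupar KD, a log2 change of -2.18 (p = 0.0724, FDR 0.344), according to the authors' deposited table. That was the most negative change of the 18 sites, and its only summit, in control KD replicate 1, had a score of 2.49. The upstream sites, 39.3 and 44.1 kb away (139872851 to 139872950 and 139877621 to 139877720), shared a control KD value of 3.82. They had 4.26 and 3.53 in Paupar KD (FDR 0.81 and 0.917) per the authors' deposited table, each with a single summit, in Paupar KD replicates 1 and 2 respectively.

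For Pax1, Pax8 and Pax9, the absence of sites was checked by position rather than by name. Within 100 kb of Pax1 and of Pax9 there was no site of any gene and no summit in any of the 4 libraries; the nearest sites lay 105 and 289 kb away. Near Pax8 a single site, 11.1 kb from the gene and assigned to Psd4, had 3.49 and 3.91 (FDR 0.856) according to the authors' deposited table. It had no summit within 250 bp in any library. The only summit within 100 kb of Pax8 was in control KD replicate 2, 10.9 kb from the gene. By the same measure 8 sites lay within 100 kb of Pax2, 7 of Pax3, 9 of Pax7, 5 of Pax5 and 3 of Pax4. In all, 16 sites within 100 kb of 1 of the 8 genes were assigned to other genes. Of these, 0 were called by the authors' DiffBind analysis, against 3.26% called higher and 0.846% lower over all sites. A site of 4933427I22Rik among them, 71.8 kb from Pax7, lay outside the authors' FDR adjustment and could not be called. At an unadjusted p below 0.05, 2 of the 16 were higher (10.7% over all sites) and 0 lower (6.67%). The 2 were the second Mir5120 site and a site of Sgpp2, 87.6 kb from Pax3. The Sgpp2 site had -0.01 in control KD, the lowest value of that group per the authors' deposited table and so a floor, and 3.92 in Paupar KD (FDR 0.0828), and its only summit was in Paupar KD replicate 1.

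**Figure D2:**
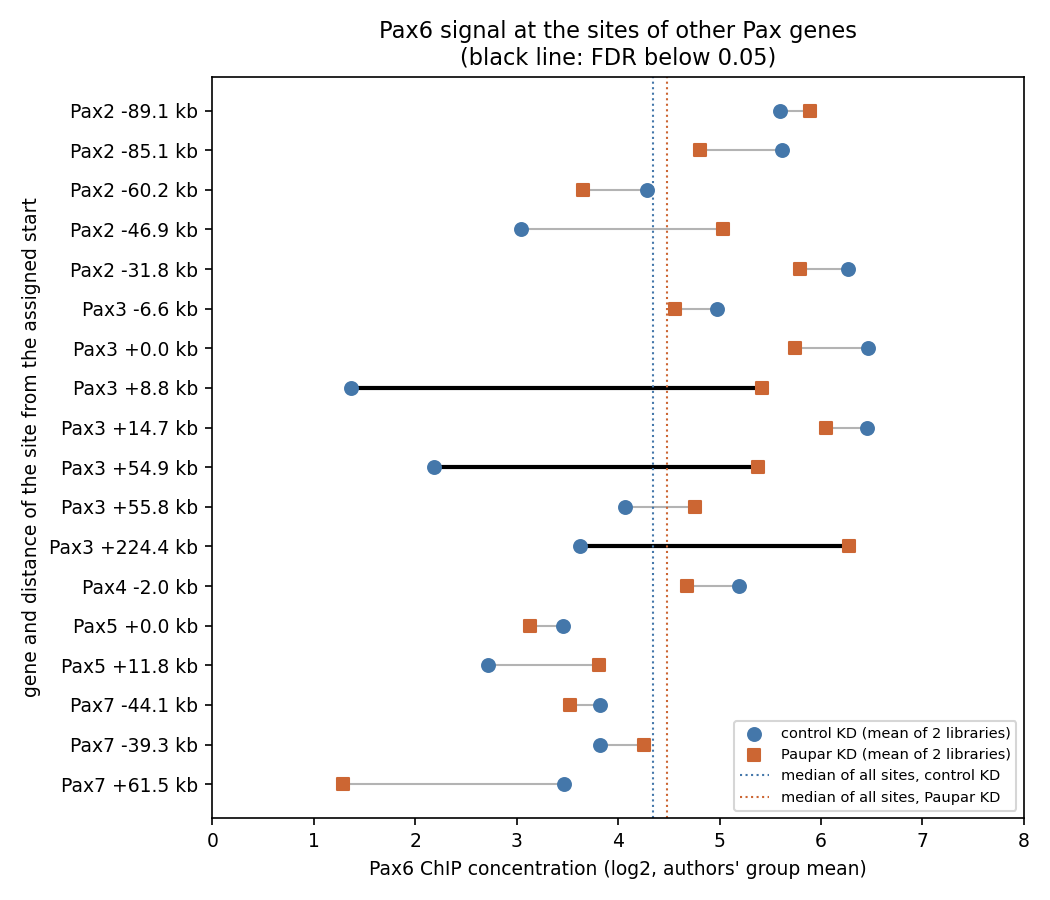
Concentration (log2, group mean) at each of the 18 sites, named by gene and distance from the assigned start, with control KD as circles and Paupar KD as squares; dotted lines are the medians of all sites. The 3 black lines, all of Pax3, mark an FDR below 0.05, and the Pax7 intron site, at 3.47 and 1.29, differs most in the other direction without passing that threshold.

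Other thresholds gave like counts over the 18 sites. At an unadjusted p below 0.05 the counts were 4 higher and 1 lower, against 10.7% and 6.67% of all sites. At an FDR below 0.1, 4 were higher (4.99% of all sites) and 0 lower (1.80%), and at an FDR below 0.01, 3 were higher (1.39%) and 0 lower (0.137%). Of the 6 intron sites 2 were called higher, against 3.80% of all intron sites. The 3 called sites were among the 9 of the 18 whose control KD concentration was below 4, a bound chosen after the values were seen. Of all sites below that bound, 6.31% were called higher. The median log2 change over the 18 sites was -0.305, with a range of -2.18 to 4.05, against -0.03 over all sites per the authors' deposited table. Of the 18 changes, 8 were above 0 (44.4%, against 48.5% of all sites) and 10 below. At Pax6 itself, 0 of 9 sites were called by the authors' DiffBind analysis, with 1 at an unadjusted p below 0.05, and the median change was 0.1 according to the authors' deposited table.

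Several called sites under 1 gene symbol were rare in the table. Of 10195 gene symbols with a listed site, 753 had at least 1 site called higher, 78 had at least 2 and 21 had at least 3. Among the 190 symbols with exactly 7 sites, 2 had at least 3 called higher, Pax3 included. For Pax3 that count includes the site 129 kb from the gene. As for position, 8 of the 18 sites (44.4%) were distal intergenic against 28.9% of all sites, 3 (16.7%) were in promoters against 27.5%, and 6 (33.3%) were in introns against 36.8%. The 3 promoter sites, at Pax3, Pax4 and Pax5, each had a log2 change below 0, from -0.33 to -0.72, and none was called. Over all sites, 13401 of 26244 changes were below 0, so 3 sites are too few to show a promoter pattern.

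Summits marked more of the 18 sites in the Paupar KD libraries. In control KD replicates 1 and 2, 7 and 6 sites had a summit, and in Paupar KD replicates 1 and 2, 12 and 11 did. The means were 6.5 ± 0.707 (SD, n = 2) and 11.5 ± 0.707 (SD, n = 2), and the groups did not overlap. The two-sided exact permutation p was 0.33, the smallest that 4 libraries allow. Over all sites the shares with a summit were 49.9% and 34.9% in control KD and 54.4% and 63.1% in Paupar KD. For the 18 sites they were 38.9% and 33.3%, then 66.7% and 61.1%. The control KD lists held 14311 and 9983 summits and the Paupar KD lists 15611 and 17942. Within control KD the longer list marked more of the 18 sites (7 against 6), and within Paupar KD fewer (11 against 12). When every list was limited to its 9983 best summits, the difference between groups was 1.5 sites in place of 5. A summit in all 4 libraries was found at 3 of the 18 sites (16.7%, against 20.0% of all sites), and in a single library at 7 (38.9%, against 43.9%).

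**Figure D3:**
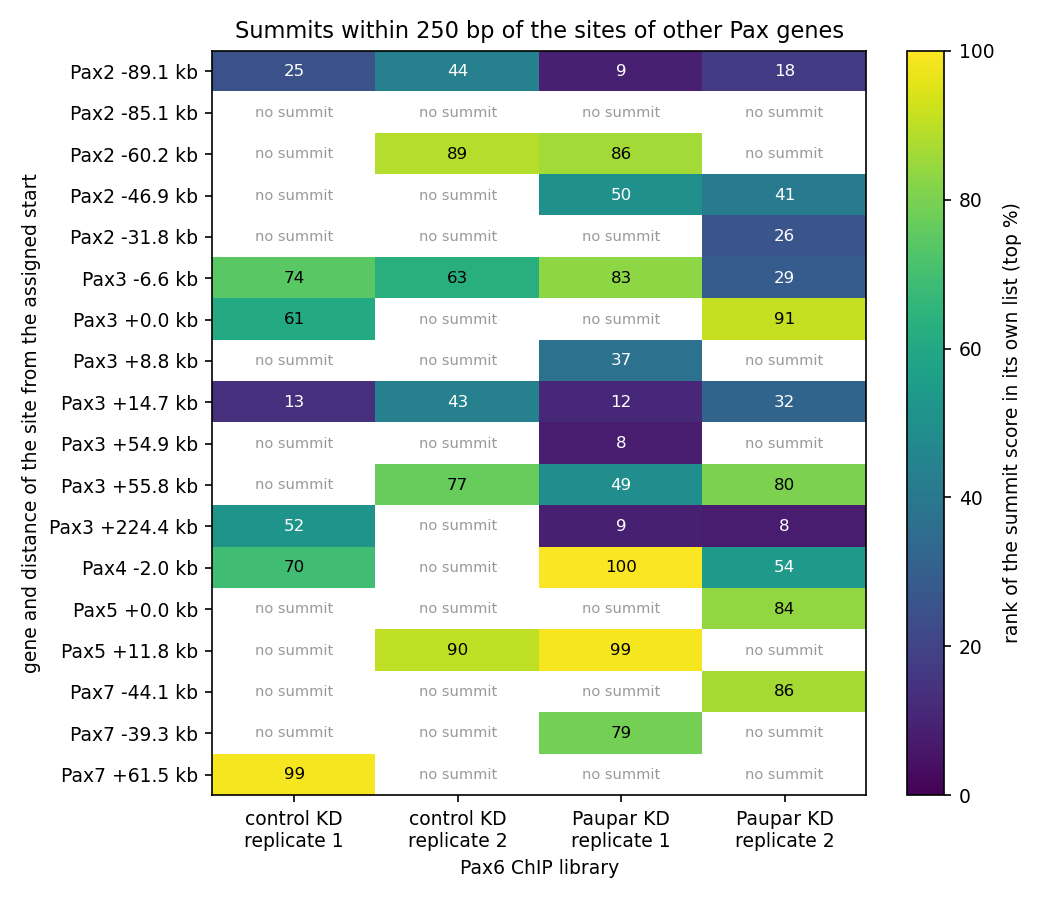
Rank of the nearest summit score within its own library's list (top percent; darker is stronger) for each of the 18 sites (rows) and the 4 libraries (columns); white cells have no summit within 250 bp. The sites at Pax3 +8.8 kb and +54.9 kb are marked in Paupar KD replicate 1 alone, and 3 rows are filled in all 4 libraries.

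The sites most like those of Pax3 were sought by the smallest distance between the pairs of group concentrations, within the same annotation class and over just 2 values. For the site with the largest change these were intron sites of Map2, Xkr4 and Mir582, with 1.37 in control KD at each and 5.45, 5.38 and 5.35 in Paupar KD per the authors' deposited table. Their FDRs were 0.00121, 0.0912 and 0.00123 according to the authors' deposited table, so nearly equal group means went with FDRs on both sides of the threshold. The exact value 1.37 recurred in control KD at 84 sites. Of these, 17 (20.2%, against 3.26% of all sites) were called higher per the authors' deposited table. For the called site at 54.9 kb the nearest were Cxxc4, Tram2 and Snd1, with FDRs of 0.00187, 0.00465 and 0.00214 according to the authors' deposited table. The distant exon site was compared with only 908 exon sites, against 9649 intron sites for the others, so its distances are not comparable with theirs. Its nearest were Tmtc3, Tnfaip8 and Myo3b, at 0.422, 0.735 and 0.829 log2 units. Their FDRs were 0.00337, 0.0285 and 0.0805 according to the authors' deposited table. For the strongest site by mean signal the nearest were Ass1, Prkce and Scn3a, all within 0.032 log2 units and uncalled.

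Pax proteins act with Eya and Dach factors, with their homeodomain partners, and with corepressors of the Tle (Groucho) family, and Paxip1 and Pagr1a belong to a complex that Pax proteins can recruit. Of 19 such symbols examined, 12 had a site, with 56 sites in all. None of the 56 was called by the authors' DiffBind analysis, while 6 higher and 2 lower had an unadjusted p below 0.05. Of the 56, 2 lay outside the authors' FDR adjustment and could not be called. The Tle1 site at 72049565 to 72049664 was 1 of these 2 and also 1 of the 6 higher. Over all sites, 3.26% were called higher and 0.846% lower, and 10.7% were higher and 6.67% lower at an unadjusted p below 0.05. Their median log2 change was -0.05 per the authors' deposited table. The strongest lay at the promoter of Tle4 (chromosome 19, 14598816 to 14598915), with 7.77 and 7.44 (FDR 0.53) according to the authors' deposited table. Another Tle4 site, in an intron (14502334 to 14502433), was at that floor in control KD and had 4.20 after Paupar KD (FDR 0.0573) per the authors' deposited table, and its only summit was in Paupar KD replicate 1.

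Listed sites at Eya3 and Dach1, from this group, reach into promoter sequences of RefSeq (GRCm38.p6), and these are shown to give the bases under a listed site. Eya3 encodes a phosphatase and transcriptional coactivator; its site had 6.53 and 6.08 (FDR 0.622) per the authors' deposited table. Dach1 encodes a nuclear cofactor; its site had 4.17 and 4.61 (FDR 0.804) according to the authors' deposited table. Each line gives the 250 bases before the gene's start, 5′ to 3′ on the gene's strand, with the bases of the Pax6 site in capitals. The Eya3 window is chr4:132638796-132639045 (plus strand, 98 bases of the site) and the Dach1 window chr14:98169766-98170015 (minus strand, 56 bases of the site).
Eya3: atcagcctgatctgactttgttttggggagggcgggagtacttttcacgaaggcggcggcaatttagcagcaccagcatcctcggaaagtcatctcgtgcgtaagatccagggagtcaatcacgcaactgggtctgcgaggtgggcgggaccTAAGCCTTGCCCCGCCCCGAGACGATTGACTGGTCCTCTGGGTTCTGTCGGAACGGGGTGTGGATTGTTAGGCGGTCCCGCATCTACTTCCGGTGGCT
Dach1: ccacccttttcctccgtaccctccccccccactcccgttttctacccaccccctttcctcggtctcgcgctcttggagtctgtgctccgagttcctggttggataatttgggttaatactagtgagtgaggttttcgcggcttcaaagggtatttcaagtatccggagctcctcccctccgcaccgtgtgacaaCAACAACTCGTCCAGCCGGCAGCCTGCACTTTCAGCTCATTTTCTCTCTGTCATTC
The capitals held 61.2% G and C bases at Eya3 and 51.8% at Dach1. RefSeq promoter windows were at hand for 6 of the 8 Pax genes (Pax1, Pax2, Pax5, Pax7, Pax8 and Pax9), in 8 windows of 250 bases before to 50 after a start, and not for Pax3 and Pax4. No site of the table overlapped these 8 windows. The letters TTCACGC, a core of paired-domain sites, were in 0 of the 8 on either strand and in 1.26% of all 32851 windows. The letters TAATTA, a homeodomain core, were in 0 of the 8 and in 5.29% of all windows. Of 6 strings searched, none was in the 8 windows; the other 4, which overlap the first 2 in letters, were TTCANGC (10.8% of all windows), a longer paired-domain site (0.00304%), the same site with a further free base (0.143%) and a spaced pair of homeodomain cores (0.487%). None of the 6 was in the printed Eya3 and Dach1 sequences, and these genes were chosen for printing after their values were seen.

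Genes known as targets of Pax proteins other than Pax6 formed the last group. Of 18 such genes examined, 7 had sites, 8 in all, with 1 called lower and 0 higher by the authors' DiffBind analysis and also 1 lower and 0 higher at an unadjusted p below 0.05. The shares over all sites were 0.846% lower and 3.26% higher for calls, and 6.67% and 10.7% at that unadjusted p, and 8 sites are too few to set against them. Their median log2 change was -0.38 per the authors' deposited table. The called site was assigned to Msx2, a homeobox gene repressed by Pax3, 65.5 kb from its start (chromosome 13, 53538545 to 53538644). It went from 5.62 to 3.62, a log2 change of -1.99 (FDR 0.0307), according to the authors' deposited table. The strongest site of the group, in an intron assigned to the B-cell adaptor gene Blnk, had 6.90 and 6.56 (FDR 0.618) per the authors' deposited table.

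**Figure D4:**
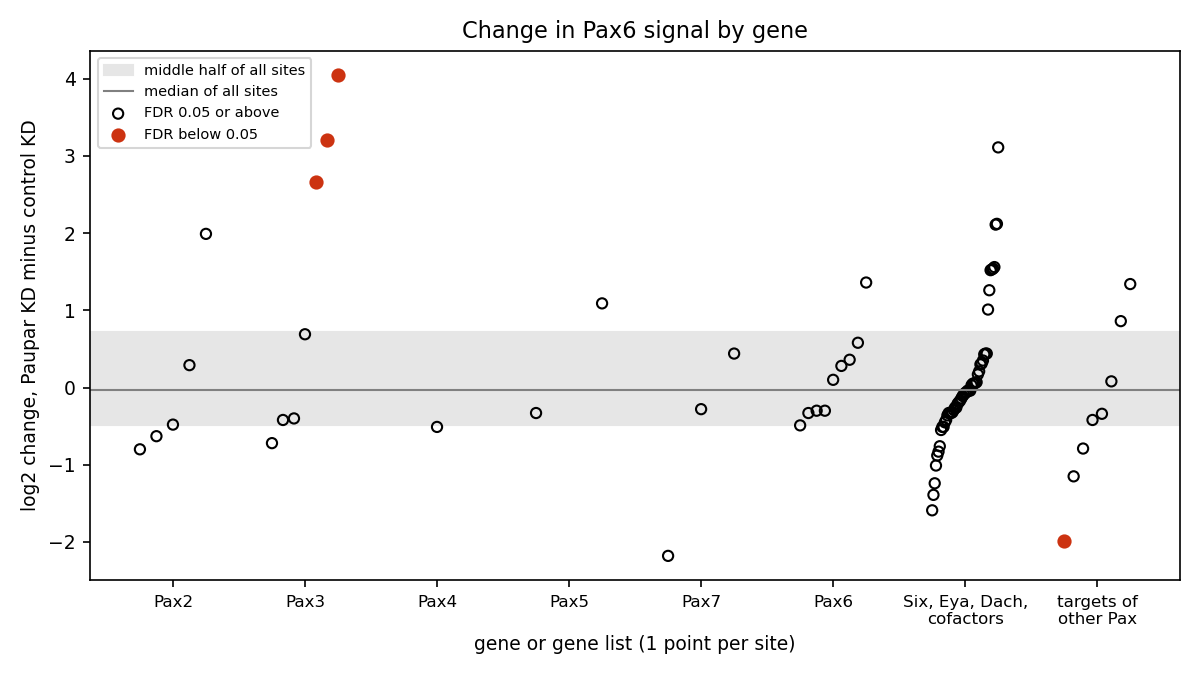
Log2 change (Paupar KD minus control KD) of each site by gene or gene list, 1 point per site; the grey band spans the quartiles of all sites, -0.49 to 0.72, and the line is their median. Filled points have an FDR below 0.05 (3 at Pax3, and Msx2 among targets of other Pax proteins); 3 sites listed at the floor in control KD are left out.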

How the data were processed

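Reads were processed on mm10 with Bowtie2, MACS2, DiffBind and ChIPseeker, per the submitters' processing notes, which give no versions. The sources used here do not give the normalization between libraries or the use of the inputs. The authors' deposited concentrations and fold are taken to be log2 values, a scale the columns do not name, and their fold equalled the difference of the concentrations to within 0.01 at all sites; the sign was turned here. The authors' deposited p-value and FDR were used as they stand. By these values 1010 of 26244 sites, and 0 of the 18, lay outside the FDR adjustment and could not be called. The scores of the deposited summit lists were read as −log10 of a q-value, because the lowest in each list was about 2. One summit list, that of control KD replicate 2, has a differing number in its name, and its assignment follows the sample that holds it.

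No test of single sites was run here. Python 3.11.15 and pandas 2.3.3 were used to select sites by symbol, to match summits within 250 bp of a site's middle, and to compare the number of matched sites per library by an exact permutation test; the matching was tested on simulated data. A spreadsheet had turned the symbols of 51 sites into dates; these were left so, and none is a Pax gene. Gene bodies and sequences come from RefSeq tables of GRCm38.p6, the assembly of mm10. Every site of the 8 genes is reported; of the other lists, the called and strongest sites are named, besides those shown for their sequence or floor value. Some genes of the lists are not reported here and are left out of the lists' counts. The genes and lists were chosen with earlier results of these data known. The authors' p-values compare the groups over 2 libraries each, and so reach no further than these biological duplicates.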

Additional observations from a re-analysis of the deposited data

How the results depend on the processing

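At the 8 Pax genes, 3 sites were higher at an FDR below 0.01, against 1.39% of all sites. At an FDR below 0.1 the count was 4, against 4.99%. At an unadjusted p below 0.05, 4 were higher and 1 was lower, against 10.7% and 6.67%. With every site within 100 kb of a gene body in place of the authors' assignment, 2 of 33 sites were higher and 0 lower. The shares over all sites were 3.26% and 0.846%. The called Pax3 site 129 kb from the gene dropped out under that rule. The median log2 change of -0.305 became -0.055 over the 10 sites with a summit in at least 2 libraries, and lay between -0.28 and -0.4 under the other alternatives, including leaving out each gene. The difference in sites with a summit, 5 per library, was 5 with windows of 100 or 500 bp, 2.5 with scores of at least 5 and 1.5 with lists of equal length; leaving out each library gave 4.5 to 5.5, and no p could be below 0.33. With the replicate number as a block, the difference in sites with a summit was again 5, at 5 for each number, with an exact permutation p of 0.50, the smallest that 2 pairs allow; the samples share only a number. No paired analysis was possible for the calls and the median change because the table holds group means. Without values per library, no call could be checked against Paupar KD replicate 1.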
